A study of Mus musculus with 6 samples.

Results

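The wild-type (WT) dendritic cell libraries of a mouse ovarian tumour model are described here as a baseline transcriptome. They were chosen by their label, as the 3 samples labelled WT among the 6 samples of the series. No other column entered any value, and levels are set against the other WT libraries only. The cells were dendritic cells sorted from ID8-based tumours of C57BL/6 mice at day 23, with ascites as the labelled source. ID8 is a mouse ovarian cancer cell line that grows in the peritoneal cavity. The genotype label is wild type, and no transgene, deletion or treatment is named for this group. The sort gate, the number of mice behind a sample and whether samples came from separate mice are not stated in the labels. Any spread between libraries may therefore be technical, biological or both. The 3 columns carry no replicate number and are called WT libraries a, b and c in column order, where the letter is only a name.

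Dendritic cells are antigen-presenting cells that take up material, cut it in endosomes and lysosomes, and display the peptides on MHC molecules to T cells. Conventional type 1 dendritic cells (cDC1) are known for cross-presentation to CD8 T cells and depend on Irf8 and Batf3, while type 2 cells (cDC2) depend on Irf4 and are known for presentation to CD4 T cells. In inflamed tissue and in ascites, monocytes also give rise to cells that carry CD11c and MHC class II, and these share many genes with macrophages.

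The libraries held between 26946349 and 32709100 counts, the lowest in b. CPM, the usual depth-scaled unit, relates the count of a gene to the column total of its library. Of 23225 gene symbols, 12163 were above 1 CPM in all 3 libraries and 898 had no count in any of them. The share of counts in the 10 most abundant genes was 19.9% in a, 16.8% in b and 20.5% in c, and 50% of the counts lay in 274, 368 and 261 genes. Library b therefore spread its counts over more genes than the other two. Among the 9545 genes with a mean of at least 5 CPM, Pearson's r of log2(CPM + 1) across genes was 0.985 between a and c, 0.972 between a and b and 0.975 between b and c. Genes within a library share its depth and are not independent. The common biological coefficient of variation, edgeR's estimate of the spread between libraries beyond counting error, was 0.211, and 0.174 without b. With 1 group of 3 libraries no test was made, and values are described by their spread.

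The most abundant transcripts were those of antigen presentation, the actin cytoskeleton and the lysosome. Cd74, the invariant chain that guides MHC class II through the cell, reached 89249 CPM in library a, 62756 in b and 91444 in c. This single gene made up 8.92% of counts in a, 6.28% in b and 9.14% in c, with b below both others. Actb, cytoplasmic beta-actin, followed at 30841, 39154 and 34686 CPM in a, b and c, in which b was the highest. Lyz2, the lysozyme of myeloid cells, stood at 17552, 10081 and 17429 CPM, and b again lay below both others. H2-Aa, the alpha chain of the MHC class II molecule I-A, gave 13963, 10059 and 14250.4 CPM. Tmsb4x, the actin-binding peptide thymosin beta 4, differed little between libraries at 11151, 9859.7 and 11147 CPM.

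**Figure D1:**
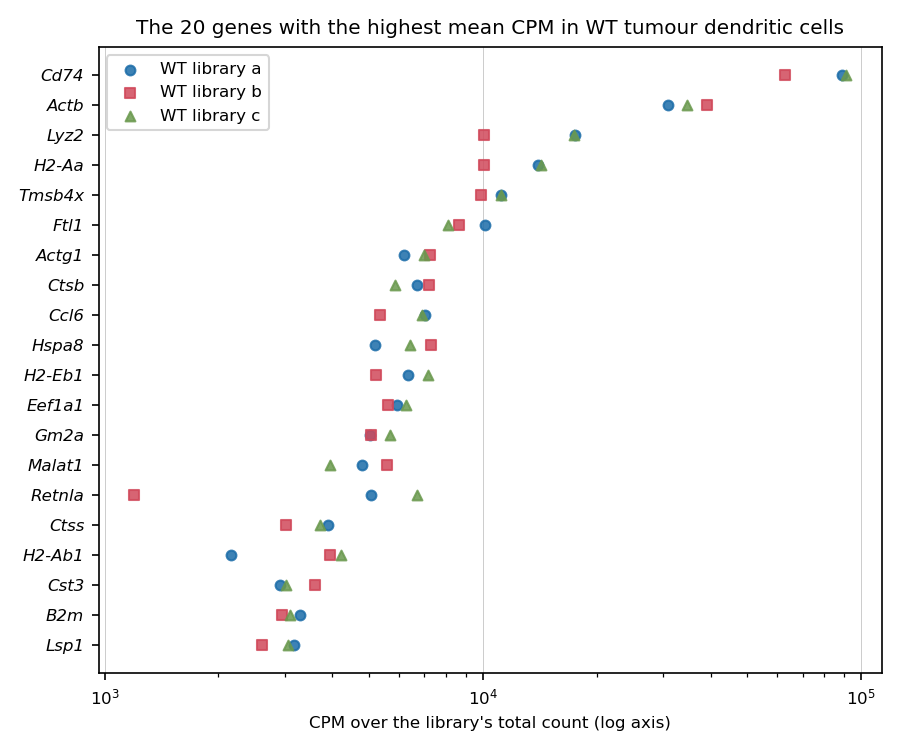
CPM of the 20 genes with the highest mean CPM, on a log axis, with 1 point for each WT library. Most genes have their 3 points close together, while Retnla in library b lies at 1199 CPM against 5072 and 6702.

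Orders of genes and sums of lists given in CPM take no account of length, and a longer transcript yields more fragments. Levels of different genes were therefore also set side by side per kilobase of transcript. On that scale Cd74 had a mean level of 58911 ± 11592 CPM per kilobase (SD, n = 3). It was followed by Actb at 18174, Tmsb4x at 13957, Lyz2 at 11414, H2-Aa at 11309.7 and Ftl1, the ferritin light chain, at 9263 CPM per kilobase. Tmsb4x lay above Lyz2 in all 3 libraries, at 14519 against 13338 CPM per kilobase in a, 12838 against 7660 in b and 14514 against 13244 in c. Lyz2 and H2-Aa had no fixed order, since Lyz2 was the higher in a and c and H2-Aa in b. Seventh was Retnla, a secreted protein of alternatively activated macrophages, at 7219 ± 4719 CPM per kilobase. Ccl6, a chemokine of myeloid cells, came eighth at 4467. Cst3, the protease inhibitor cystatin C, stood at 3689, B2m, the light chain of MHC class I, at 3613, and C1qb, a chain of complement C1q, at 2581 CPM per kilobase. These levels depend on the transcript chosen for the length. With the median length of a gene's coding transcripts Actb had 37520.2 CPM per kilobase, and H2-Aa, at 13058, came before Lyz2 with an unaltered 11414.

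Lyz2 has a near copy, Lyz1, the lysozyme of intestinal Paneth cells, and both lie on chromosome 10 in GRCm38. Their coding sequences are printed from the first to the 150th base in GENCODE vM21, because reads of a stretch without a differing base fit both genes. Capitals mark the bases at which the copies differ.
Lyz1: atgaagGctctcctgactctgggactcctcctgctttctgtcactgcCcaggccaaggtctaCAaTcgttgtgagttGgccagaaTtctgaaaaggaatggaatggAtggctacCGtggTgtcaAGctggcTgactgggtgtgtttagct
Lyz2: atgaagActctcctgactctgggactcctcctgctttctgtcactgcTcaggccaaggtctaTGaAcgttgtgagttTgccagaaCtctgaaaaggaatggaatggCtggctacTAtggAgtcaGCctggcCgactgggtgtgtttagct
The coding sequences of 447 bases were identical at 425 bases (95.1%), and 14 of the 22 differing bases lie in the stretch shown. Of all windows of 50 bases in Lyz2, 15.4% also occur in Lyz1. Lyz1 was listed at 3256 CPM in library a, 1687 in b and 3309.6 in c, and the ratio of Lyz2 to Lyz1 in CPM was 5.39, 5.98 and 5.27. Both genes were lowest in library b, with the ratio nearly even across libraries. How the submitters' counting divided shared reads is not given in the sources used here, so the level of Lyz1 is uncertain. The same holds for Ftl1, Hspa8, Actg1 and Eef1a1 among the abundant genes, where 50.9%, 38.6%, 37.4% and 39.4% of such windows occur in other genes. It also holds for less abundant genes named further on. In GENCODE vM21 the share of such windows was 66.3% for Itgam, 46.7% for Lilrb4, 44.2% for Eef1g, 32.4% for Ctsd, 26% for Eno1 and 25.8% for Pkm2. It was between 10% and 20% for Eif1, Cd1d1, Klrb1c, Clec4a4, Tlr1, Mgl2 and Csf3r.

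Among the 20 lists of cell states, MHC class II presentation took the largest share of the counts. All 16 matched genes of 17 in the list were detected, which means above 1 CPM in all 3 libraries, and their summed level was 120199 CPM in library a, 89128 in b and 125499 in c. That sum is mostly Cd74. Variable genes are those whose highest CPM is at least 2 times the lowest, and over all 9545 genes with a mean of at least 5 CPM 601 (6.3%) were variable. Of the 15 MHC class II genes at that level 0 were variable, and their median ratio of highest to lowest was 1.30 against 1.28 over all 9545 genes. The share of 6.3% also stands behind the counts of variable genes in later lists. Few or no variable genes are not read as a trait of a list.

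The class II genes on chromosome 17 share a promoter module that the RFX complex and the factor NF-Y bind and through which the coactivator Ciita acts. The Y box of that module was searched as the letters TGATTGG on both strands in the 250 bases before each start in RefSeq GRCm38.p6. Its complement holds CCAAT, so other CCAAT boxes with these neighbours count as matches. Promoters were found for 13 of the 17 listed genes, and 8 of their 15 promoters held the letters, against 7.23% of all 32851 promoters. These were the promoters of H2-Aa, H2-Eb1, H2-Eb2, H2-Oa, H2-Ob, H2-DMb1, H2-DMb2 and Rfx5. The promoters of H2-DMa, Ctss, Lgmn, Ifi30 and Rfxank did not hold the letters. Cd74, H2-Ab1, Ciita and Rfxap had no promoter to search. A match is a description of the letters and not a site of binding. The 150 bases before the start are printed 5′ to 3′ in the direction of the gene for the chains with a match that are the most abundant and for a DM and a DO chain, with the match in capitals.
H2-Aa, chr17:34287824-34287973, minus strand: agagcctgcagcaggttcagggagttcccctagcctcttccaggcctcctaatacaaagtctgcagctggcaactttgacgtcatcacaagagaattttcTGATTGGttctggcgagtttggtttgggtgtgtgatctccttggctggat
H2-Eb1, chr17:34305717-34305866, plus strand: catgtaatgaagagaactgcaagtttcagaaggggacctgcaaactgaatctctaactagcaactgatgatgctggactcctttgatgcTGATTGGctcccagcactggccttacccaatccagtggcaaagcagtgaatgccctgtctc
H2-DMb2, chr17:34145099-34145248, plus strand: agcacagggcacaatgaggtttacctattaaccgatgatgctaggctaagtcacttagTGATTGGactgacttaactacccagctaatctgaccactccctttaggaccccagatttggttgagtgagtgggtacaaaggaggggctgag
H2-Oa, chr17:34092229-34092378, plus strand: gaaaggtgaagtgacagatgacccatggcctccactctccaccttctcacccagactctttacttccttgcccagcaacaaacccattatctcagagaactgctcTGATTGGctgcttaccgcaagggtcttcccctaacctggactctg
The match began 50 bases before the start in H2-Aa, 61 in H2-Eb1, 92 in H2-DMb2 and 45 in H2-Oa.

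By mean CPM H2-Aa and H2-Eb1 followed Cd74 in the class II list, and H2-Ab1 at 3442 CPM lay just below the protease Ctss at 3535 CPM. H2-Eb1, the gene of the beta chain of I-E, stood at 6338 CPM in library a, 5219 in b and 7158 in c. Its RNA level does not show whether an I-E molecule was formed. H2-Ab1, the beta chain that pairs with H2-Aa, stood at 2158 CPM in library a, 3943 in b and 4224 in c, so that here library a and not b was the low one. The ratio of H2-Aa to H2-Ab1 per kilobase was 6.95 in a, 2.74 in b and 3.62 in c, although the chains pair one to one in the protein. H2-DMa and H2-DMb2, which make the editor that exchanges the invariant chain peptide, had means of 1586 ± 297 CPM and 1214 ± 157 CPM (SD, n = 3). H2-DMb2 shares 24.8% of its windows of 50 bases with other genes, mostly H2-DMb1, which had no row of its own. H2-Oa and H2-Ob, which restrain that editor and are known from B cells and some dendritic cells, were at 189 ± 16.2 CPM and 184 ± 28.6 CPM (SD, n = 3). H2-Oa differed little between libraries, with 203, 192 and 171 CPM in a, b and c.

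The proteases and regulators of the pathway were also present. Ctss, the cathepsin that trims the invariant chain, had 3887, 3016 and 3704 CPM in a, b and c. Lgmn, the asparagine endopeptidase, was at 675 ± 100.2 CPM and Ifi30, the thiol reductase of the endosome, at 403 ± 30.8 CPM (SD, n = 3). Ciita, the coactivator without which class II genes are silent, was at 158 CPM in library a, 193 in b and 199 in c, lowest in a. H2-Ab1 was lowest in a too, but Cd74, H2-Aa and H2-Eb1 were lowest in b. In all, 8 of the 15 class II genes with a mean of at least 5 CPM were lowest in b. Per kilobase Ciita reached 30.5 CPM. The RFX subunits were low, with Rfxank at 35 ± 0.805 CPM, Rfx5 at 6.64 ± 1.16 CPM and Rfxap at 2.32 ± 0.898 CPM (SD, n = 3). Per kilobase Rfx5 had a level of 2.03 CPM against 11309.7 CPM for H2-Aa, the chain whose promoter it helps to drive.

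**Figure D2:**
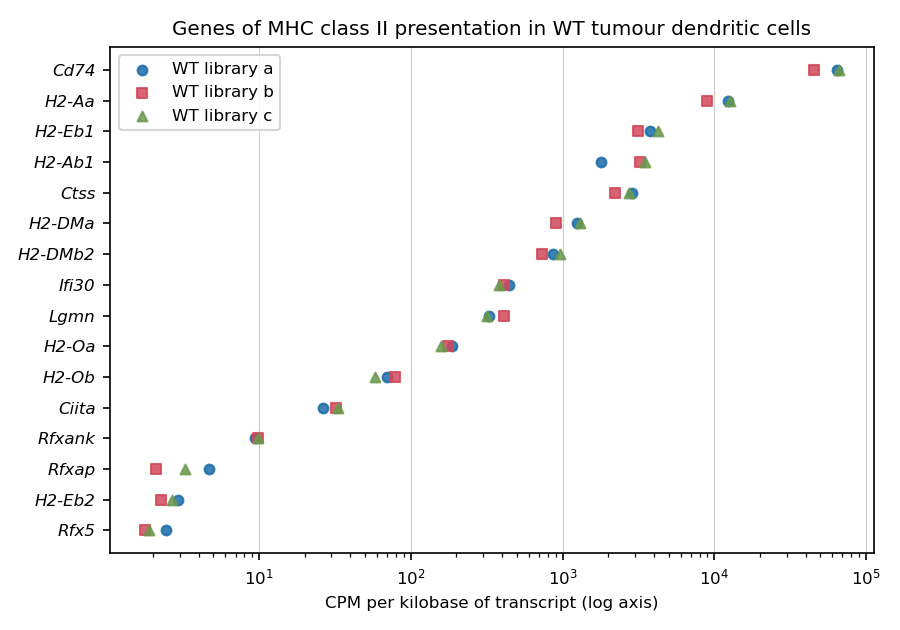
CPM per kilobase of transcript for the 16 matched genes of MHC class II presentation, on a log axis, with 1 point for each WT library. The libraries lie close together for most genes, and H2-Ab1 in library a and Cd74 and H2-Aa in library b lie below the other points.

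Marker genes of the labelled cell type are described next. They were chosen with earlier results of these data known, so their detection is no check of the label. The 6 genes that mark the sample in the study plan were all detected. Of these, 0 were variable, which for so few genes lies near the 6.3% of all 9545 genes. Itgax, the gene of CD11c, was at 105 CPM in library a, 98.9 in b and 97.1 in c, a coefficient of variation of 3.90%. Ccr2, the receptor that draws monocytes and their progeny into tissue, was at 2574, 2393 and 2845 CPM in a, b and c. Cd209a, a lectin of monocyte-derived and type 2 dendritic cells, was at 1869, 1334 and 1528 CPM. C1qb was at 3026, 2359.6 and 3039.9 CPM, with b below both others, as for Cd74 and Lyz2. None of the 6 was highest in b.

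All 7 markers shared by conventional dendritic cells were detected. Flt3, the growth factor receptor that conventional dendritic cells need, was at 28.2 CPM in library a, 52.8 in b and 25.4 in c. Zbtb46, a transcription factor of conventional dendritic cells that monocytes lack, was low but even, at 8.13, 9.35 and 7.83 CPM. Dpp4 had 205 ± 42 CPM, Cd24a 204 ± 34.1 CPM and Bcl11a 17.4 ± 2.34 CPM (SD, n = 3). Kit, a receptor of precursors, mast cells and some dendritic cells, was at 67.3 CPM in library a, 147 in b and 86.9 in c. Flt3 and Kit were variable and both were highest in b, while Itgax, Bcl11a and Zbtb46 had a highest-to-lowest ratio of 1.08, 1.31 and 1.19.

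The genes of cDC1 differed between the libraries more than those of the other dendritic cell lists. Library b was at least 1.5 times both others for 10 of the 11 matched cDC1 genes. Over all 9545 genes this held for 641 (6.72%), and 102 (1.07%) lay at or below 1/1.5 of both others. That split of 641 above and 102 below depends on the scaling. It was 256 above and 320 below with TMM factors, and 266 above and 302 below with the size factors of DESeq2. Under either of those scalings 9 of the 11 cDC1 genes lay at least 1.5 times above both others in b. Their median ratio of b to the mean of a and c was 2.82, and 2.42 with TMM factors. Over all 9545 genes the median of that ratio was 0.12 on the log2 scale with column totals and -0.10 with TMM factors.

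Xcr1, the chemokine receptor of cDC1, was at 66.3 CPM in library a, 179.6 in b and 61.1 in c. Tlr3, the receptor for double-stranded RNA that cDC1 carry, was at 59.7 CPM in library a, 197 in b and 56 in c. Itgae, the gene of CD103, was at 51.3 CPM in library a, 178 in b and 61.4 in c. In each of these genes b alone was high, and a and c lay close together. Clec9a, the receptor for actin of dead cells, was at 17.6, 38.4 and 12 CPM and Irf8, the factor cDC1 depend on, at 69.2, 140.4 and 57.9 CPM. Wdfy4, which cross-presentation needs, was at 127, 234 and 114 CPM, and Naaa, listed under the symbol NAAA, at 326, 868 and 504 CPM. Ifi205, at 89.4, 302 and 91 CPM, belongs to a family of near copies, and 18.6% of its windows of 50 bases occur in other genes. Gcsam, listed under its older symbol Gcet2, had 46.1, 145 and 34.5 CPM and Snx22 11.9, 43 and 8.62 CPM. Batf3 was the exception, at 24.7, 34.9 and 35.3 CPM, with b and c alike and a lower. In bulk samples more cells of a type and more RNA per cell cannot be told apart.

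Of 9 cDC2 genes with a mean of at least 5 CPM, 0 were variable and 0 lay 1.5 times above or below both others in b. Over all 9545 genes 6.3% were variable, 6.72% lay above and 1.07% below, so for 9 genes these counts lie near those shares. With TMM factors 2 of the 9 lay below. Mgl2 and Clec10a, near-identical lectins for galactose, were at 1609 ± 179 CPM and 254 ± 35.7 CPM (SD, n = 3). Sirpa, the receptor of the signal CD47, had 166, 130.1 and 131 CPM in a, b and c. Irf4, the factor cDC2 depend on, had 84.4, 61.4 and 111 CPM and Klf4 90.3, 67.8 and 91.4 CPM, lowest in b in both. Clec12a and Cd1d1 had 201 ± 10.8 CPM and 118 ± 5.12 CPM (SD, n = 3). Esam, known from splenic cDC2, was at 9.56 ± 1.74 CPM and Clec4a4, the gene of DCIR2, at 1.86 ± 1.04 CPM (SD, n = 3). The summed cDC2 list gave 4374 CPM in library a, 3668 in b and 4206 in c, and the summed cDC1 list gave 889.7 CPM in library a, 2359.9 in b and 1036 in c.

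**Figure D3:**
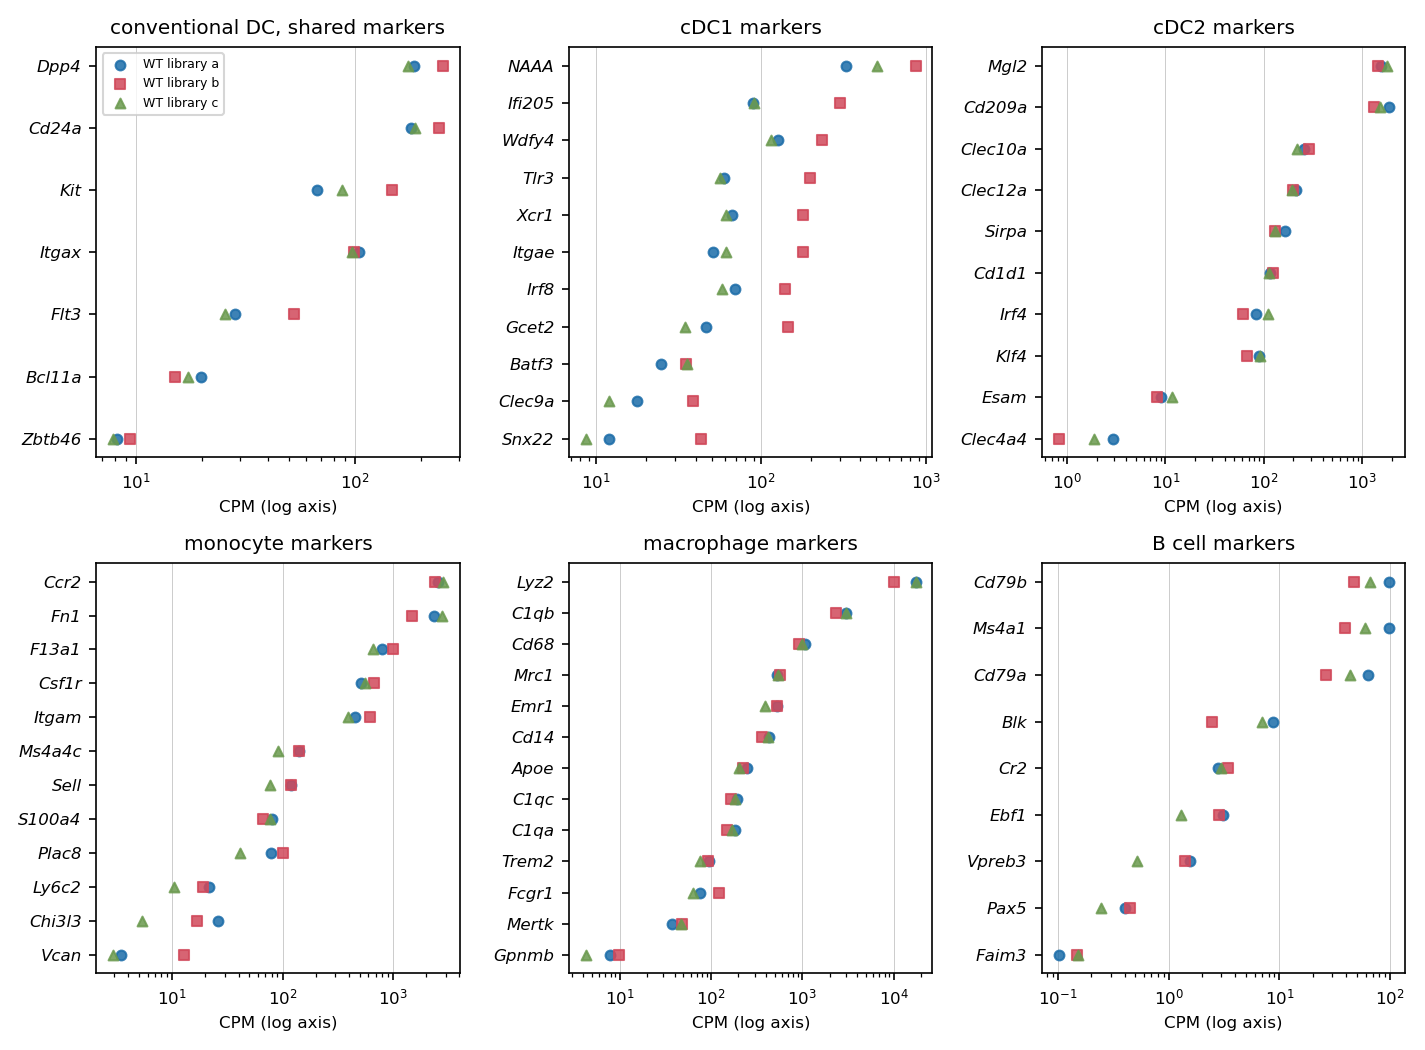
CPM of most marker genes of 6 lists in the 3 WT libraries, on log axes that differ between panels, with 1 point for each library. In the cDC1 panel library b lies to the right for 10 of 11 genes, and in the B cell panel it lies to the left for the 4 most abundant genes shown.

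Genes of plasmacytoid dendritic cells, the producers of type I interferon, were low. Siglech, their surface lectin, was at 36.4 CPM in library a, 24 in b and 28.7 in c, Ccr9 at 19.8, 16 and 16.8 CPM and Spib, one of their transcription factors, at 18, 9.80 and 11.9 CPM. Tcf4, the factor that sets their identity and is also found elsewhere, was at 81.3 ± 4.44 CPM (SD, n = 3). Of 7 genes with a mean of at least 5 CPM 1 was variable, Ly6d, at 48.8, 15.5 and 29.4 CPM. Ly6d is also a B cell gene, and its libraries stood in the same order, a above c above b, as for the B cell genes described further on.

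Genes of mature dendritic cells that migrate to lymph nodes were present in all libraries. Ccr7, the receptor that guides that migration, was at 257 CPM in library a, 313 in b and 270 in c. Ccl22 had 137 ± 21.1 CPM, Ccl17 29.3 ± 3.88 CPM, Fscn1, the actin bundler fascin, 28.3 ± 4.39 CPM and Relb, a subunit of NF-kB, 18.7 ± 3.45 CPM (SD, n = 3). Cacnb3 had the narrowest spread of the list, at 30.01, 31.2 and 30.9 CPM. None of the 9 matched genes was variable, which for so few genes lies near the 6.3% of all 9545 genes.

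Monocyte genes were abundant, led by Ccr2 and by Fn1, fibronectin, at 2362 CPM in library a, 1475 in b and 2759.7 in c. F13a1, the coagulation factor of monocytes and macrophages, was at 793, 996 and 655 CPM, Csf1r, the receptor of the macrophage growth factor, at 509.8, 675 and 558 CPM and Itgam, the gene of CD11b, at 456, 613 and 390.2 CPM. All 3 were highest in b. Other genes of the list mark the classical inflammatory monocyte. Ly6c2 was at 21.5, 19.2 and 10.4 CPM, Plac8 at 78.4, 101 and 41.4 CPM, Chil3, listed as Chi3l3, at 25.9, 16.9 and 5.35 CPM and Vcan, versican, at 3.44, 12.8 and 2.90 CPM. For Ly6c2, Plac8 and Chi3l3 library c was the low one. These 3 and Vcan were the variable genes among the 12 of the list. Per kilobase Ccr2 had a mean level of 799.6 CPM and Ly6c2 one of 26.7 CPM. Of their windows of 50 bases, 14.4% in Ly6c2 and 26.9% in Chi3l3 occur in other genes, so both levels are uncertain.

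All 14 macrophage genes were detected. Cd68, a lysosomal membrane protein of phagocytes, was at 1077 CPM in library a, 928 in b and 983 in c, and Mrc1, the mannose receptor, at 522, 565 and 545 CPM. Adgre1, the gene of F4/80 and listed as Emr1, was at 525, 531 and 389.8 CPM and Cd14, the co-receptor for endotoxin, at 427, 366 and 426 CPM. Mertk, a receptor for dying cells, was at 37.8, 48.4 and 47.1 CPM and Trem2, a lipid-sensing receptor, at 94.7, 91.8 and 76.1 CPM. Fcgr1, the gene of CD64, was at 75, 122 and 64.1 CPM, with b at least 1.5 times both others. Gpnmb, at 7.86, 9.87 and 4.25 CPM, was the 1 variable gene of the list. Apoe was at 227 ± 23.2 CPM (SD, n = 3). Macrophage markers and markers of conventional dendritic cells were thus both present in every library.

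Genes of resident peritoneal macrophages, the large macrophages of the healthy cavity, were low. Gata6, the transcription factor that defines them, was at 13.2 CPM in library a, 8.05 in b and 13 in c. Timd4 had 44.4, 69.6 and 42.2 CPM, Icam2 54.8, 51 and 45.1 CPM, Prg4 71.1, 81.1 and 40.02 CPM and Lyve1, a hyaluronan receptor, 72.2, 119 and 45.9 CPM. Alox15, a lipoxygenase of these cells, was higher at 311, 321 and 255 CPM. Laptm5, a lysosomal membrane protein of haematopoietic cells in general, led the list with 2859.8 ± 93 CPM (SD, n = 3). In Gata6 b was the lowest library, and in Timd4, Prg4 and Lyve1 it was the highest, so the list did not move as one.

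Several lists of other cell types also differed between the libraries. The 10 matched neutrophil genes summed to 326 CPM in library a, 151 in b and 118 in c. Ngp, a granule protein of neutrophil precursors, was at 67 CPM in library a, 0.371 in b and 10.8 in c, and S100a8, a calcium-binding protein of neutrophils and monocytes, at 48, 16.3 and 7.77 CPM. Both were high in a alone. Cxcr2 and Csf3r, receptors of mature neutrophils, were instead highest in b, at 27.7, 51.2 and 21.8 CPM and 29.3, 46.6 and 25.5 CPM. Of 7 neutrophil genes with a mean of at least 5 CPM 6 were variable.

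The 10 B cell genes summed to 315 CPM in library a, 147 in b and 207 in c. Ms4a1, the gene of CD20, was at 97.1 CPM in library a, 38.8 in b and 58.9 in c and Cd79b, a chain of the B cell receptor, at 97.2, 47.4 and 65.7 CPM. Cd79a, the chain that pairs with it, had 63.3, 26.5 and 43 CPM in the same order of libraries. All 5 genes with a mean of at least 5 CPM were highest in a and lowest in b, and 4 of them were variable. Their median ratio of b to the mean of a and c was 0.498, and 0.429 with TMM factors.

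The 12 T cell genes summed to 56.6 CPM in library a, 61.3 in b and 42.6 in c, with Cd3e at 4.15, 7.61 and 4.22 CPM, and none of the 5 with a mean of at least 5 CPM was variable. The 9 matched NK cell genes summed to 92.9 CPM in library a, 131 in b and 84.3 in c, mostly Klrb1c at 45.1, 66.1 and 47.3 CPM. The 4 matched platelet genes summed to 154 CPM in library a, 162 in b and 83.9 in c, nearly all of it Pf4, a chemokine that macrophages also make. Ppbp, its neighbour in platelet granules, was at 5.06, 3.19 and 1.41 CPM, and Gp9 had no count in a or c, where 3 counts would be 0.101 and 0.0917 CPM. Mast cell and basophil genes other than Kit were low, with Cma1 at 14.2, 14 and 14 CPM and Tpsb2 at 15, 12.8 and 11.3 CPM. The 4 matched eosinophil genes summed to 31.7 CPM in library a, 22.6 in b and 21.2 in c.

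Red cell genes marked out library b. Haemoglobin Beta-s was at 20.4 CPM in library a, 139 in b and 10.7 in c, Hba-a2, of which 89.3% of windows occur in its copy Hba-a1, at 9.11, 86.5 and 8.01 CPM and Hbb-b1 at 8.0, 47.6 and 3.33 CPM. Alas2, the haem synthesis enzyme of red cell precursors, was at 1.08, 8.76 and 0.214 CPM, again highest in b. The 3 matched genes of the erythroid list summed to 9.15 CPM in library a, 56.5 in b and 3.76 in c. Beside the higher cDC1 genes, library b thus had more haemoglobin and fewer B cell counts. Their part in the cDC1 difference was not tested.

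Genes of epithelial and mesothelial cells summed to 140.3 CPM in library a, 165 in b and 166 in c, led by Krt19 at 58.2, 51.4 and 65.2 CPM, Krt18 at 24, 24.6 and 30.7 CPM and Wt1 at 26.6, 20.3 and 23.6 CPM. Cdh1, E-cadherin, which some dendritic cells also make, was at 6.99, 30.1 and 10.1 CPM, high in b alone. Fibroblast genes were near 0 except Dcn, at 34.7, 40.7 and 38.5 CPM, with the collagen gene Col1a2 at 0.844, 2.38 and 0.887 CPM. The 6 endothelial genes summed to 16.6 CPM in library a, 30.1 in b and 17.1 in c.

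Genes of MHC class I presentation were all detected, with a median ratio of highest to lowest of 1.27 against 1.28 over all 9545 genes. B2m was at 3295 CPM in library a, 2942 in b and 3084 in c, H2-K1 at 914, 931 and 987 CPM and H2-D1 at 563, 565 and 446 CPM, although 9.63% and 12.8% of the windows of the class I genes occur in other genes. Of 14 genes 2 were variable, a share above the 6.3% of all genes. They were the peptide pump subunits Tap1 and Tap2, at 47, 106 and 58.6 CPM and 17.8, 35.4 and 17.5 CPM, which were chosen after their values were seen. Both were high in b alone.

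Costimulatory and inhibitory ligands were both present. Cd86 was at 119 CPM in library a, 159 in b and 136 in c and Cd80, the other ligand of CD28, at 10.9, 15.9 and 13.3 CPM. Per kilobase their means were 54.4 and 5.48 CPM. Cd40, which receives help from CD4 T cells, was at 50.5, 42.6 and 41.5 CPM, Icosl at 139, 142 and 152 CPM and Cd83, a marker of activated dendritic cells, at 217, 304 and 268 CPM. Tnfsf4 and Cd70, at 1.13 ± 0.561 CPM and 0.174 ± 0.0887 CPM (SD, n = 3), were the only genes of the 8 that were not detected. Among inhibitory genes Lilrb4, a receptor of myeloid cells, had the highest CPM at 1095, 1163 and 1133 CPM, with the uncertainty of its shared windows given above. Lgals9, galectin 9, had 259, 278 and 267 CPM and Vsir, the gene of VISTA listed as 4632428N05Rik, 200.1, 195 and 206 CPM, both with a coefficient of variation below 4%. Arg1, arginase, was variable at 104, 210.2 and 65.1 CPM, high in b.

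Cytokine genes were low in all libraries. Il1b was at 33 CPM in library a, 51.7 in b and 31.5 in c, Il18 at 33.9, 32.3 and 32.5 CPM, Il12b, the shared chain of interleukins 12 and 23, at 18.2, 36.3 and 23.6 CPM and Il15 at 24.9, 18.4 and 23.5 CPM. Il12b, highest in b, was just past the ratio of 2. Of the 15 genes 10 were detected.

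Chemokine ligands held some of the most abundant and some of the most variable genes. Ccl6 was at 7046 CPM in library a, 5357 in b and 6893 in c, Ccl9, a related chemokine, at 1959, 1492 and 2045 CPM and Ccl5, which draws T cells, at 946, 582 and 820 CPM. All 3 were lowest in b. Ccl2, the ligand of Ccr2, ran the other way at 326, 745 and 293 CPM. Ccl7, another ligand of Ccr2, was at 56.5, 180.2 and 40.1 CPM. Of 14 ligands with a mean of at least 5 CPM 8 were variable, against 6.3% of all 9545 genes. By column total b was at least 1.5 times above both others in 6, against 6.72% of all genes, and below in 0. With TMM factors b lay above in 5 of the ligands and below in 2, against 256 above and 320 below over all genes. Among the receptors, C5ar1 for complement C5a was at 626, 763 and 464 CPM and Ccr1 at 589.7, 544 and 563 CPM, and neither was variable.

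The lysosome was the other abundant compartment. The 18 genes of the list were all detected and summed to 25994 CPM in library a, 25959 in b and 24698 in c, and their median ratio of highest to lowest was 1.16. Ctsb was at 6697 CPM in library a, 7192 in b and 5872 in c, Ctsc, which activates granule proteases, at 2603, 2452 and 2654 CPM, Ctsd at 2590.2, 2543 and 2219 CPM and Psap, the precursor of the saposins, at 1323, 1673 and 1460.1 CPM. Per kilobase Ctss led with 2609, ahead of Ctsb at 1389 and Ctsd at 1152 CPM. Gm2a, the activator that lifts gangliosides for digestion, belonged to the 20 most abundant genes with 5027, 5069 and 5683 CPM.

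Complement genes other than C1qb were intermediate. Cfp, properdin, which stabilises the alternative pathway, was at 2109 CPM in library a, 1606 in b and 2118 in c. The receptor gene C3ar1 had 469.6 ± 79.9 CPM (SD, n = 3). Of 13 genes 0 were variable, which for so few genes lies near the 6.3% of all 9545 genes. C1q is built from A, B and C chains in equal number, but C1qa was at 181, 149 and 168 CPM and C1qc at 194, 167 and 183 CPM, far below C1qb. The ratio of C1qb to C1qa per kilobase was 15.96 in a, 15.2 in b and 17.3 in c, and of C1qb to C1qc 17.2, 15.6 and 18.4. The gap was of similar size in every library.

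Among pattern receptors, Clec7a, the beta-glucan receptor dectin-1, was at 455 CPM in library a, 349 in b and 456 in c and Clec4a3 at 269.8, 235 and 289 CPM. Tlr13, which senses bacterial ribosomal RNA, was at 109, 191 and 115 CPM, Tlr4, which senses endotoxin, at 118, 165 and 117 CPM and Tlr2 at 54.3, 82 and 46.9 CPM. Tlr1, its partner, was at 68.7, 71 and 70.7 CPM with a coefficient of variation of 1.78%. Only Tlr3, a cDC1 gene, was variable among 9 Toll-like receptor genes with a mean of at least 5 CPM. The adaptors of Fc receptors were abundant, with Tyrobp at 1401, 1048 and 1399.6 CPM and Fcer1g at 1281, 1096 and 1258 CPM, both lowest in b. Fcgr3 was at 808, 625 and 856 CPM and the inhibitory Fcgr2b at 441, 369 and 458 CPM, and these copies share 9.58% of the windows of Fcgr3.

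Interferon-stimulated genes were moderate. Oas1a, which senses double-stranded RNA, was at 131 CPM in library a, 148 in b and 132 in c, with 57.6% of its windows in other genes, and Mx1, an antiviral GTPase, at 72.1, 68 and 85.7 CPM. Library b was the highest for 10 of 12 genes with a mean of at least 5 CPM, and for 8 of 12 with TMM factors, against 52.3% and 27.2% of all 9545 genes, with a median ratio to the mean of a and c of 1.44 and 1.23. Cell division genes were present in every library. Top2a, which untangles chromosomes, was at 132, 228 and 125 CPM, Rrm2, which makes nucleotides for replication, at 144, 199 and 109 CPM and Mcm5, a subunit of the replicative helicase, at 104, 129 and 72.8 CPM. Library b was the highest for 12 of the 14 genes, and for 11 with TMM factors, against the same 52.3% and 27.2%, and 2 of 14 were variable. Under both scalings b was thus highest for most genes of these lists.

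Genes of the unfolded protein response were all detected. Xbp1, the transcription factor of the pathway, is named here as the gene that the series deletes, and was at 64.2 CPM in library a, 51.1 in b and 70.3 in c. Hspa5, the chaperone BiP, was at 1080.4, 1402 and 1279 CPM, Hsp90b1 at 917, 927 and 908 CPM with a coefficient of variation of 1.06% and Pdia4, a disulfide isomerase, at 491, 485 and 573 CPM. Herpud1, an early gene of ER stress, was the only variable gene of 11 with a mean of at least 5 CPM, at 121, 285 and 214 CPM.

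All 13 genes of lipid handling and 9 of the 12 of glycolysis and hypoxia were detected. Of those with a mean of at least 5 CPM 1 of 13 and 0 of 9 were variable, near the 6.3% of all 9545 genes. The glycolysis and hypoxia genes not detected were Gapdh, Aldoa and Vegfa. Their low values are not read as absence and are given at the end. Cd36, a scavenger receptor for fatty acids, was at 798 CPM in library a, 681 in b and 878 in c, Lpl, lipoprotein lipase, at 582, 592 and 603 CPM and Plin2, the coat protein of lipid droplets, at 571, 589.8 and 538 CPM. Eno1 had 2563, 3016 and 2676 CPM, Pkm, listed as Pkm2, 1611, 2044 and 1616 CPM and Ldha 932, 1132 and 932 CPM, the last steps of glycolysis and lactate formation. By column total library b was the highest for all 3 of these. It was also the highest for 8 of the 9 glycolysis and hypoxia genes at that level. With TMM factors b was the highest for 5 of the 9 and the lowest for 2. Over all genes with a mean of at least 5 CPM, b was the highest for 52.3% by column total and 27.2% with TMM factors. For these 9 genes the median ratio of b to the mean of a and c was 1.25 and 1.07. Immediate early genes, which rise within minutes of handling or stimulation, were low to moderate. Zfp36, which destabilises cytokine mRNA, was at 438, 579 and 522 CPM, Fos at 107, 185 and 129.9 CPM and Egr1 at 40.00, 43.8 and 38.8 CPM.

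Among the 20 genes of highest mean CPM, Retnla had the widest spread. It was at 5072 CPM in library a, 1199 in b and 6702 in c, a ratio of highest to lowest of 5.59, and b was 0.204 times the mean of a and c. The value was 0.174 with TMM factors. The 12 genes of alternative activation did not move as one, and 5 of them were variable. With column totals 3 lay at least 1.5 times above both others in b and 1, Retnla, at or below 1/1.5 of both, and with TMM factors these numbers were 2 and 2. Ccl24, named after its values were seen, was also lowest in b at 38.6, 28.8 and 79.4 CPM, or 0.488 times the mean of a and c. Arg1 was highest in b, and Mrc1 and Mgl2 were not variable. Among lineage transcription factors Id2, which conventional dendritic cells and innate lymphoid cells need, was the most abundant at 1329 CPM in library a, 1510.5 in b and 1504 in c. Irf5 was at 194, 273 and 221 CPM and Maf at 164, 174 and 120.2 CPM.

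**Figure D4:**
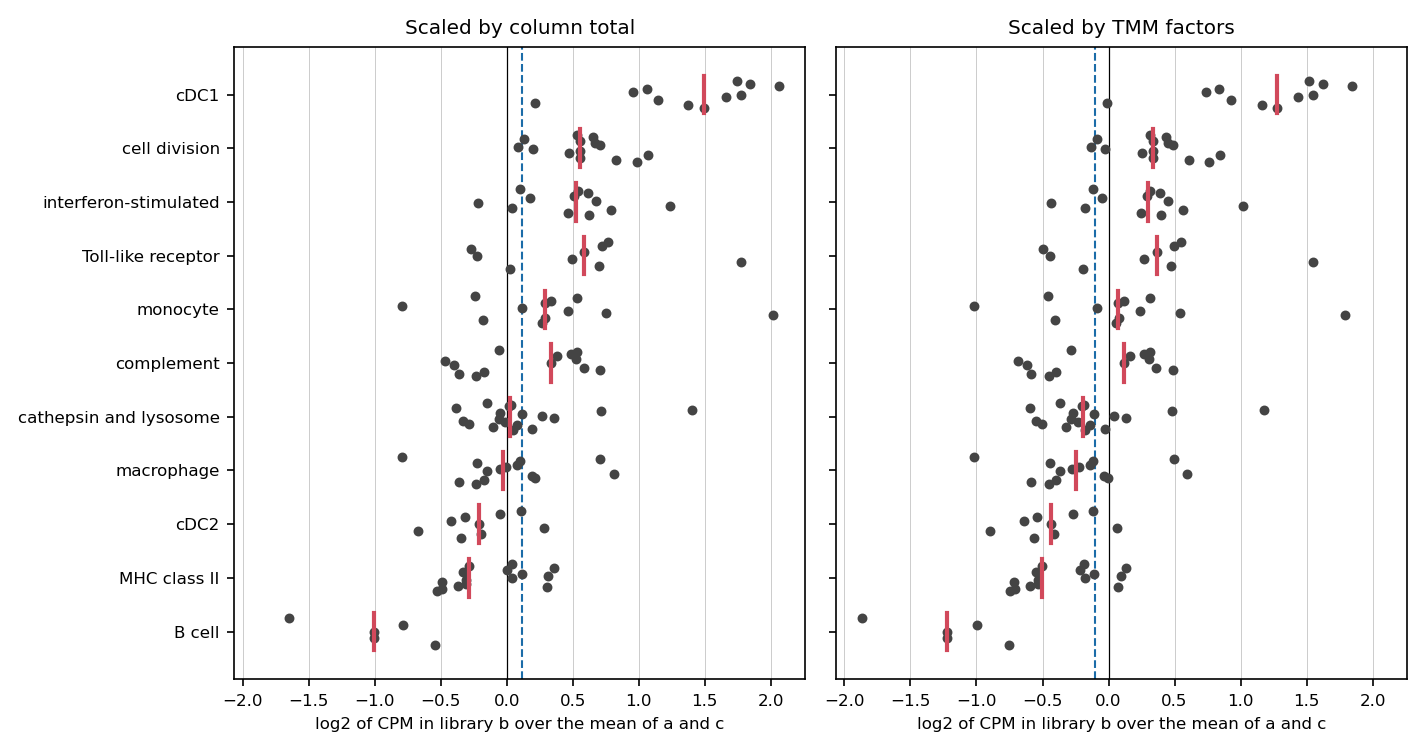
The log2 of CPM in library b over the mean of a and c for genes of 11 lists with a mean of at least 5 CPM, with 1 point per gene, red bars at list medians and a dashed line at the median of all 9545 genes, scaled by column total on the left and by TMM factors on the right. cDC1 genes lie furthest to the right and B cell genes furthest to the left under both scalings.

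The widest spreads among genes with a mean of at least 20 CPM came mostly from library b. By column total, of the 601 variable genes 481 were highest in b, 66 in a and 54 in c. Over all 9545 genes b was the highest for 52.3% by column total and for 27.2% with TMM factors. That split of the variable genes was counted by column total only, so part of it may come from the scaling. With only 2 libraries left, 103 genes were variable without b, 378 without a and 335 without c. Thbs1, thrombospondin 1, was at 39.3 CPM in library a, 152 in b and 24.8 in c, Saa3, an acute phase protein, at 80.7, 244 and 54.5 CPM and Slpi, a protease inhibitor, at 49.96, 109.8 and 26.9 CPM. Gpr171, a G protein-coupled receptor, was at 20.6, 99 and 14.8 CPM. Fth1, the ferritin heavy chain, was at 316, 1237 and 249.6 CPM, whereas Ftl1, the light chain, had 10157, 8664 and 8079 CPM. Eif1, a translation initiation factor, had 188, 856 and 446 CPM, Aup1, a lipid droplet and ER protein, 35.2, 161 and 92.2 CPM and Cox6a1, a subunit of cytochrome c oxidase, 31.3, 138 and 85.9 CPM, and in these a was the lowest and c lay between. AK209715, an entry without a gene symbol, was low in a alone, at 4.89, 48.6 and 76.4 CPM, and Ngp and S100a8, given above, were high in a alone.

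The 10 narrowest spreads were taken among genes with a mean of at least 100 CPM. Eef1g and Eef1d, subunits of the translation elongation factor, were at 555, 559 and 551 CPM and 181, 180.1 and 179.9 CPM in a, b and c. Psma1 and Psmc6 of the proteasome had 238, 238 and 236 CPM and 141, 143 and 143 CPM. Lat2, an adaptor of myeloid and B cells, had 215, 216 and 216 CPM and Sdhc, a subunit of succinate dehydrogenase, 104, 104 and 103 CPM. The others were Mcmbp, Slc35a4, Crry, a regulator of complement, and Kiaa0028. Each had a coefficient of variation below 1%. The median over 9545 genes was 13.03%, with quartiles of 7.90% and 20.8%, and it was 9.25% for the 1641 genes with a mean of at least 100 CPM. Without library b the median was 8.57%.

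Library b also differed by the level and length of the gene. Its median ratio to the mean of a and c was 1.73 for 3883 genes between 0.1 and 0.5 CPM, 1.24 for 3455 genes between 1 and 5 CPM, 1.09 for 4136 genes between 20 and 100 CPM and 0.933 for the 117 genes of at least 1000 CPM. The ratio of a to c moved less, from 1.10 in the lowest of these classes to 1.01 in the highest. With genes split into 5 classes by transcript length, the median log2 ratio of b was -0.07 for the shortest, with a median length of 1169 bases, and 0.22 for the longest, with a median of 6200 bases. Spearman's rho across 9027 genes was 0.28 for b and -0.03 for a over c, as a description. The cDC1 genes have mean levels between 21.2 and 566 CPM. The part of level and length in the differences of b, those of the cDC1 genes included, was not tested.

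**Figure D5:**
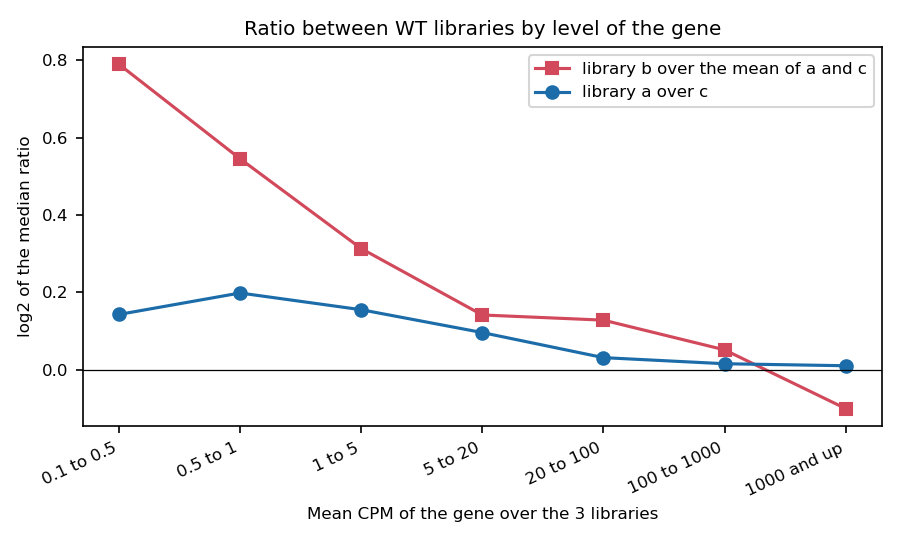
The log2 of the median ratio between libraries for genes in 7 classes of mean CPM. The ratio of b to the mean of a and c runs from 0.79 in the lowest class to -0.10 in the highest, and that of a to c stays between 0.01 and 0.20.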

How the data were processed

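RNA-seq libraries of sorted dendritic cells from ID8-based tumours were measured, and the 3 WT columns of the deposited count table were used. The counts that the authors deposited are whole numbers per gene symbol without normalization. The submitters' processing notes name RSEM, edgeR and mm9 as tools and mouse build, without role or version. No source used here says how estimates of RSEM were made whole. The authors' second deposited table holds CPM, and for the 13946 genes in it the values equalled the CPM over the column total. Per the labels' protocols libraries were made by standard Illumina protocols, and strand is not given.

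CPM, mean, SD, coefficient of variation and the ratio of highest to lowest were computed per gene over libraries of 26946349 to 32709100 counts. At this depth 3 counts are 0.0917 to 0.111 CPM. Counting error and spread between libraries were not set against each other gene by gene. edgeR 4.0.16 in R 4.3.3 gave TMM factors and, for genes kept by filterByExpr, the common dispersion with an intercept only. DESeq2 1.42.0 gave size factors as an alternative. The dispersion step was tested on simulated data. No pair of libraries agreed within sampling noise, with chi-square per degree of freedom between 22.5 and 74.5.

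The planned RefSeq lengths were not used here. Lengths are those of APPRIS principal transcripts in GENCODE vM21 on GRCm38, otherwise the longest coding or longest transcript, for 19924 symbols. That build is not the one of the counts. The 41 lists hold 413 genes, of which 404 matched a row, 13 by another symbol. The description and the lists were chosen with earlier results of these data known, and the 1.5-fold rule for library b after its values were seen.

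The text names the 6 markers, the 20 genes of highest mean CPM and of highest CPM per kilobase, up to 5 members of each list by mean CPM (any member for dendritic, monocyte, macrophage, MHC class II and costimulation lists), the 20 widest ratios at a mean of at least 20 CPM, the 10 lowest coefficients of variation at a mean of at least 100 CPM, and near copies. Other names are said to be chosen outside this rule, and 6 list members are not reported by name here.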

Additional observations from a re-analysis of the deposited data

How the results depend on the processing

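The number of detected genes, the shares of counts in the 10 and 100 most abundant genes, the common biological coefficient of variation and the 10 cDC1 genes higher in b stayed within 1.5 times of their value, or within 1 SD, under the alternatives tried. So did the 443 named genes and 41 list sums under TMM factors and size factors. Leaving out 1 of 3 libraries cannot move a mean by 1 SD. For the named genes, the list sums and the shares of counts that check could therefore not fail, and nothing is concluded from it. The deposited CPM gave a value for 420 of the 443 genes. The 601 variable genes became 1824 with a mean of at least 1 CPM, 117 with a mean of at least 50 CPM and 2303 with a ratio of at least 1.5, and between 103 and 378 when 1 library was left out. The median coefficient of variation of 13.03% ranged from 8.57% to 12.4% when 1 library was left out. Genes at least 1.5 times higher in b numbered 256 with TMM factors, 266 with size factors and 395 with TMM factors from genes of at least 5 CPM, an alternative added after seeing the data, and those lower 320, 302 and 185. Against a single other library the counts were 1201 to 1275 higher and 199 to 259 lower. The scaling itself sets these splits, since it moves library b as a whole. No paired analysis was possible because 1 group was used and its columns carry no replicate number. Precision is limited by 3 libraries.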

Other observations

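Some symbols of genes that nearly every cell uses were listed near 0. Gapdh, a glycolytic enzyme, was at 1.38, 2.26 and 0.978 CPM in a, b and c, and Aldoa, another, at 0.203, 0.482 and 0.153 CPM, while Pgk1, Tpi1 and Eno1 of the same pathway had 404 ± 64.5 CPM, 254 ± 17.6 CPM and 2752 ± 236 CPM (SD, n = 3). Hmgb1, a chromatin protein, was at 2.60, 3.41 and 2.02 CPM. Of windows of 50 bases, 24.7% in Gapdh, 20.4% in Hmgb1 and 5.13% in Aldoa occur in other genes. The share was 53.9% in Pgk1, 26% in Eno1 and 4.18% in Tpi1, so that low and abundant symbols both include genes with large and small shares. Tgfb1 and Vegfa, named after their values were seen, were at 1.22, 1.45 and 1.13 CPM and 0.506, 0.371 and 0.734 CPM, with shares of 0.278% and 0.114%. A low value of 1 symbol is not read here as absence of the transcript. The cause was not tested.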
